A study of Mus musculus with 29 samples.

Results

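The imprinted promoter of Plagl1 on mouse chromosome 10 was followed through 29 reduced representation bisulfite sequencing (RRBS) libraries of 15 groups. RRBS cuts DNA with the enzyme MspI at CCGG and counts, at each CpG of the CpG-rich fragments, the reads that kept a methylated cytosine. The region was chosen by the window chr10:12808000-12814000 (mm9), in which 57 CpGs had a read in any library, of 2828076 autosomal CpGs in the whole series. Of these 57 CpGs, 43 reached 10 reads in at least 1 library. The Plagl1 level used below is the percentage of methylated CpG reads over the 21 CpGs with at least 5 reads in each of the 29 libraries, which lie within chr10:12810619-12810995. The planned minimum of 10 reads in every library left 2 CpGs and was lowered by the rule set for that case. Because the window was selected on methylation values of these same libraries, its levels are a description and no test is attached to them.

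Plagl1 encodes a zinc finger transcription factor that restrains growth of cultured cells and acts on a network of other imprinted genes. It is an imprinted gene: the promoter copy inherited from the mother is methylated in the oocyte and silent, and the unmethylated copy from the father is transcribed. The same promoter region gives rise to the noncoding RNA Hymai. Such germline methylation is normally kept through the early embryo and in somatic tissues. A cell population that has kept it is therefore expected to show an intermediate share of methylated reads, with one parental copy methylated and the other not. The files carry no parental or read-by-read information, so copies were not told apart here.

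Stem cell groups came from 3 male lines of embryonic stem cells (ESCs), named J-34, J-35 and J-37, which were placed in their media at passage 4. The 2i/L keratinocytes (2 male libraries) and the wild-type keratinocytes (1 female library) are neonatal mouse skin cells, and the labels do not say how the 2i/L ones arose from 2i/L culture. The returned cells spent 16 passages in 2i/L and then 3 passages (2i/L to S/L p23, all 3 lines) or 10 passages (2i/L to S/L p30, libraries titled J-35 and J-37) in serum with LIF, called S/L. The 2i/L groups were taken after 6 passages (p10) and 16 passages (p20) in 2i/L, with 3 libraries each. For a2i/L there is 1 p10 library (J-34) and 2 p20 libraries (J-34 and J-35), and for PKCi/L 1 p10 library (J-35) and 2 p20 libraries (J-34 and J-35). The labels give no composition for these media. PD (commonly an inhibitor of the kinases Mek1/2) and CHIR (commonly one of Gsk3), which 2i combines, were each given alone to J-34 for 6 passages. The Mek1/2 DKO library is a male induced pluripotent line made from Mek1fl/fl;Mek2-/- fibroblasts with viral Oct4, Klf4, Sox2 and c-Myc. It was picked as a clone, lost Mek1 through Cre, and was kept in S/L on fibroblast feeders. S/L p10 and S/L p20, with 3 libraries each, are the same ESC lines never placed in 2i/L. One p30 library is titled J-35, while its cell type field and protocol name J-34, so its line is uncertain. RRBS measures no RNA, so the cell types could not be checked against marker genes.

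The 300 bases around the Plagl1 start are shown because they carry 17 of the measured CpGs. The RefSeq promoter sequence (table of build GRCm38.p6) was placed on mm9 by the spacing of its CGs. All 17 deposited CpGs inside the placed stretch, chr10:12810388-12810687 on the plus strand, fell on one of its 26 CGs, which puts the start of transcription at position 12810638. Capitals mark the CpGs that have reads in the deposited files.
Plagl1 promoter: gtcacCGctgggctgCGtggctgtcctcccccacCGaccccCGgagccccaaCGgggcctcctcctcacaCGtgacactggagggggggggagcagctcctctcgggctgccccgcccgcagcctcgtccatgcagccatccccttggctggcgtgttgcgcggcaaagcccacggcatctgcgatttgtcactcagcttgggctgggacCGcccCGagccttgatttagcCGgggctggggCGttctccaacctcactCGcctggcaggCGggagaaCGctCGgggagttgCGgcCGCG
The promoter of Hymai placed in the same way, with 18 of 18 CpGs on a CG, and its start lies at 12810651, downstream of that of Plagl1. The hexamer TGCCGC, to which the zinc finger protein Zfp57 binds when it is methylated, was searched on both strands. It occurs once in these 300 bases, on the minus strand at 12810548, 90 bases upstream of the start, and its CpG had no reads. Of 32851 promoters of the same length in the table, 3813 (11.6%) hold it. A match of letters says nothing on binding.

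The libraries held 8359802 to 22433006 reads over CpGs, fewest in the wild-type keratinocytes, and the 21 Plagl1 CpGs were covered by 158 to 494 CpG reads per library. The median read number of these CpGs was 7 in the wild-type keratinocytes and 23 in a2i/L p10, the lowest and the highest of the libraries. CpGs of one MspI fragment are read by the same reads, and no molecular identifiers were used, so intervals cover counting error only and are too narrow. The window also showed that the libraries fall into 3 coverage sets, recorded here because they cross some comparisons. The CpGs at 12810658, 12810725, 12810743 and 12810878 had reads in exactly 9 libraries, those of both keratinocyte groups, a2i/L p20, PKCi/L p20 and p30. The CpG at 12810875 had reads in these and in the 9 libraries of p23, 2i/L p20 and S/L p20. The remaining 11 libraries, which are the Mek1/2 DKO, PD, CHIR and all p10 libraries, had none there. Where a comparison crosses sets, the set and the groups cannot be told apart. The sets rest on these CpGs alone, so libraries of one set may still differ in coverage.

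The 2i/L keratinocytes were far above the returned stem cells. The Plagl1 level was 39.6% and 40.3% in the 2 2i/L keratinocyte libraries, against 13.9% in J-34, 11.4% in J-35 and 3.19% in J-37 in p23 cells. In p30 cells it was 20.8% in the library titled J-35 and 1.52% in J-37. Every keratinocyte library lay above every returned library. The 2 2i/L keratinocyte libraries lay close together over these 21 CpGs, while the returned lines were spread out. Over all CpGs from 12810501 to 12811000 the 2i/L keratinocyte libraries stood at 43.5% and 39.0%, so their closeness depends on the CpGs used. The group level was 39.9% ± 0.438 (SD, n = 2) in 2i/L keratinocytes and 9.47% ± 5.59 (SD, n = 3) in p23, a difference of 30.5 points, with 25.8 points between the closest libraries. Against p30, at 11.1% ± 13.6 (SD, n = 2), the difference was 28.8 points with a gap of 18.9 points. It was 19.2 points without the p30 library of J-37 and 38.4 points without the p30 library titled J-35. The contrast with p30 lies within one coverage set, and the contrast with p23 crosses sets.

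Over all autosomes these groups were alike in level. The methylated share over 337328 CpGs with at least 5 reads in every library was 24.6% ± 1.53 (SD, n = 2) in 2i/L keratinocytes, 23.4% ± 0.749 (SD, n = 3) in p23 and 21.0% ± 1.37 (SD, n = 2) in p30. As a background, autosomal bins of 500 bp with at least 3 CpGs and 10 reads per library were called where group means differed by at least 20 points and no libraries overlapped. Of 103610 bins, 18863 (18.2%) were higher in 2i/L keratinocytes than in p23, and 14978 of 111280 (13.5%) higher than in p30. The median bin differed by 1.05 and 0.375 points. The Plagl1 bin, chr10:12810501-12811000, was 33.2 points higher than in p23 and 30.4 points higher than in p30, and was among the bins called. The background shares are given beside this bin, which was chosen for the contrast, and nothing is read from them.

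Single CpGs showed the same order of group means, but not always a gap between the libraries. At 12810917, 279 bases downstream of the start and the most deeply read CpG of the window with 903 reads in all, 15 of 36 and 4 of 14 reads were methylated in the 2i/L keratinocyte libraries. In p23 cells 5 of 33, 4 of 38 and 0 of 31 reads were methylated, where a count of 0 in J-37 allows a share of up to 9.68%. The group values were 35.1% ± 9.26 (SD, n = 2) and 8.56% ± 7.76 (SD, n = 3). The CpG at 12810619, inside an MspI site 19 bases upstream of the start, stood at 41.4% ± 0.347 (SD, n = 2) in 2i/L keratinocytes and 2.78% ± 2.42 (SD, n = 3) in p23. At 12810693, 55 bases downstream, the values were 41.8% ± 3.76 (SD, n = 2) and 5.85% ± 2.91 (SD, n = 3). Of the 14 CpGs with at least 10 reads in all 5 of these libraries, all 14 were higher in the keratinocytes, by a median of 38.5 points. Among these 14 the difference was widest at 12810684, with 42.0 points, and narrowest at 12810786, with 14.0 points. Some of the 21 CpGs of the level that missed this read minimum differed far less. With the libraries of a group pooled, 2i/L keratinocytes and p23 stood at 22.7% and 21.1% at 12810763. At 12810780 they stood at 18.2% and 15.8%. At 12810786 the p23 cells stood at 17.05% ± 12.8 (SD, n = 3), their highest value among the 5 most deeply read CpGs. Libraries overlapped there. In p23 cells of J-34, 8 of 26 reads were methylated (30.8%), against 3 of 11 (27.3%) in the lower 2i/L keratinocyte library. Since neighbouring CpGs share reads, these 14 values are not independent.

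**Figure D1:**
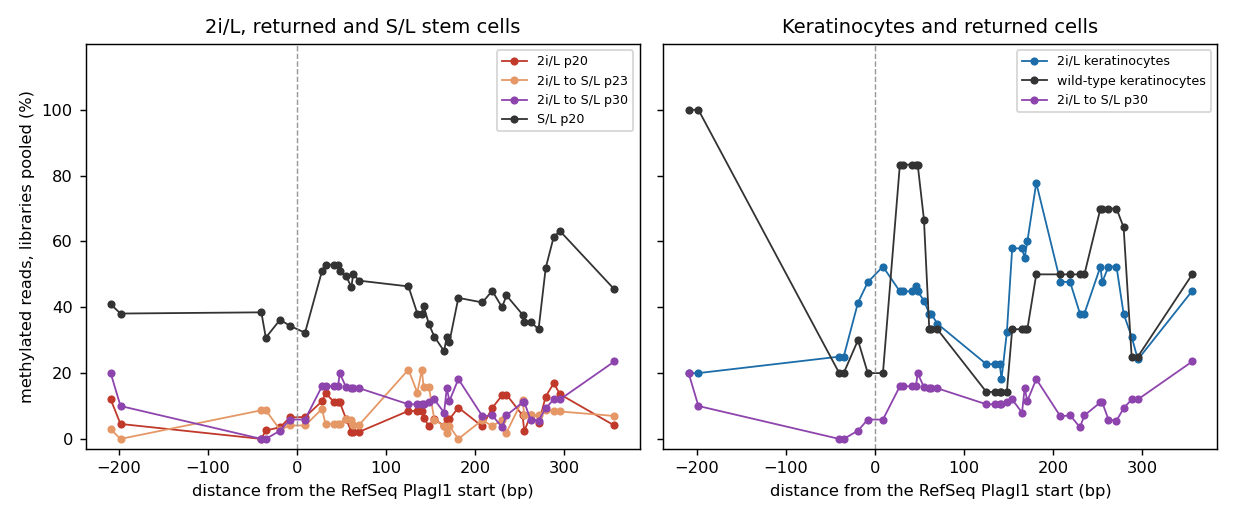
Percentage of methylated reads (y axis) at each Plagl1 CpG with a read in every library, libraries of a group pooled, against the distance from the RefSeq Plagl1 start in bp (x axis, dashed line at the start). Left, 2i/L p20, p23, p30 and S/L p20 stem cells. Right, 2i/L keratinocytes, wild-type keratinocytes and p30 cells. The S/L p20 line runs above the 2i/L p20, p23 and p30 lines throughout, and the 2i/L keratinocytes do so except at 12810429, where they equal p30. The wild-type keratinocytes, on few reads, lie above p30 throughout but below p23 at 4 CpGs from 125 to 148 bases downstream.

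The 4 CpGs read only in 9 libraries were not part of the level. They belong to the same window, chosen with values of these libraries known, so they are no independent check. Over them 32 of 68 reads (47.1%) and 21 of 50 reads (42.0%) were methylated in the 2i/L keratinocytes. The p30 libraries had 15 of 64 reads (23.4%) in the one titled J-35 and 0 of 68 in J-37, which allows up to 4.41%. The wild-type keratinocytes had 19 of 32 reads methylated (59.4%). As over the 21 CpGs, the wild-type keratinocytes were highest of these 5 libraries, both 2i/L keratinocyte libraries came next and the p30 libraries were lowest. The 2 2i/L keratinocyte libraries stood in the opposite order to each other. These CpGs lie among the 21 and may share fragments with them.

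The wild-type keratinocytes had the highest group level of the series, although the S/L p10 library of J-37 was higher at 59.0%. The 2i/L keratinocytes stood at 39.6% and 40.3%, against 53.2% in the single wild-type keratinocyte library (84 of 158 reads, 95% Wilson interval 45.4 to 60.8%). The difference was -13.2 points, with 12.9 points between the closest libraries. It was -8.32 points over the 38 CpGs that all libraries cover with 1 read or more, and -29.2 points at the CpG with most reads alone. This library was the shallowest, and its level was uneven along the promoter. From 208 to 295 bases downstream, 11 CpGs gave 40.2% ± 5.30 (SD, n = 2) in 2i/L keratinocytes and 59.3% in wild-type keratinocytes. From 125 to 181 bases downstream, 10 CpGs gave 37.9% ± 5.82 (SD, n = 2) in 2i/L keratinocytes and 21.6% in wild-type keratinocytes, the opposite order, with 51 CpG reads in the wild-type library. The 2 groups also differ in labelled sex.

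**Figure D2:**
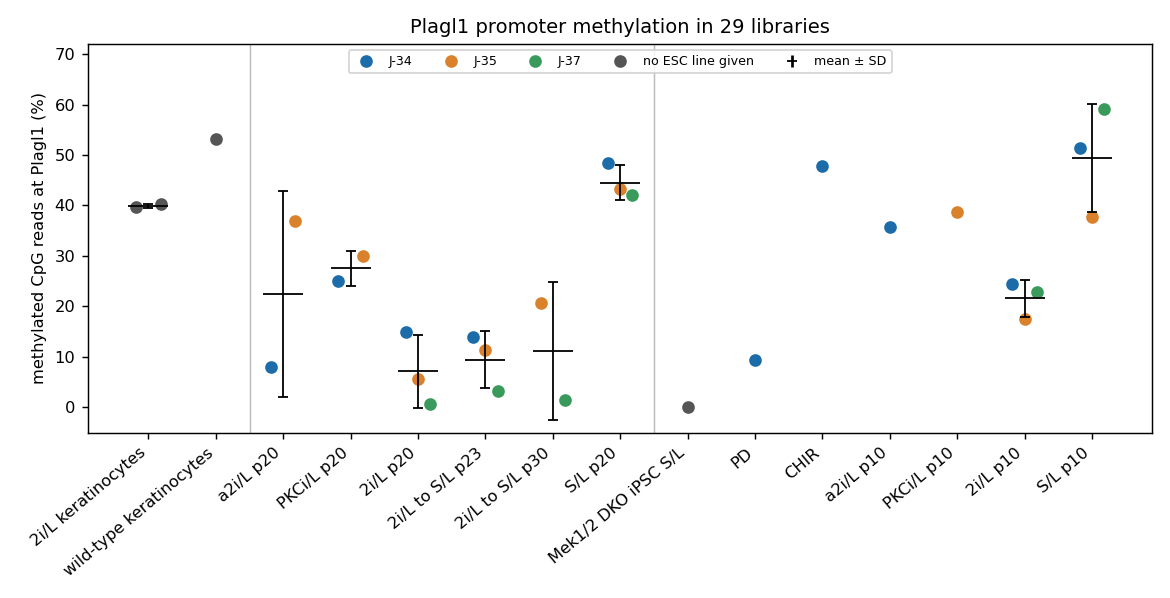
Plagl1 level of each of the 29 libraries, as the percentage of methylated CpG reads over 21 CpGs (y axis), by group (x axis). Points are libraries coloured by the ESC line in the title, bars are the group mean and SD where a group has 2 or more libraries, and vertical lines part keratinocytes, p20 to p30 groups, and the DKO, single-compound and p10 groups. The 2i/L keratinocytes sit near 40% while 2i/L p20, p23 and J-37 p30 lie below 16%.

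In 2i/L the promoter was low by p10 and lower by p20. At p10 the level was 24.5%, 17.5% and 22.8% in 2i/L cells of J-34, J-35 and J-37, against 51.4%, 37.8% and 59.0% in S/L cells of the same lines. No libraries overlapped. The groups stood at 21.6% ± 3.62 in 2i/L and 49.4% ± 10.8 in S/L (SD, n = 3 each), a difference of -27.8 points. At p20 it was 15.0%, 5.68% and 0.669% in 2i/L cells, against 48.4%, 43.2% and 42.0% in S/L cells. The p20 groups stood at 7.12% ± 7.28 in 2i/L and 44.5% ± 3.39 in S/L (SD, n = 3 each), a difference of -37.4 points with 27.0 points between the closest libraries. In J-37 at p20 in 2i/L, 2 of 299 CpG reads were methylated. Each line was lower at p20 than at p10 in 2i/L, and p20 minus p10 was -9.46 points in J-34, -11.9 points in J-35 and -22.1 points in J-37. These p20 and p10 libraries belong to different coverage sets, while each contrast with S/L lies within a set.

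This difference was one of many in 2i/L. Of 96016 autosomal bins, 52590 (54.8%) were called lower in 2i/L cells at p10 than in S/L cells, and the Plagl1 bin differed by -28.0 points, against a median of -27.8 points over all bins. At p20, 65937 of 119615 bins (55.1%) were called lower, and the Plagl1 bin differed by -36.7 points, against a median of -29.9 points. Among bins that, like Plagl1, stood at 30 to 70% in each S/L p20 library, 12382 of 13447 (92.1%) were called lower in 2i/L p20, with a median difference of -34.9 points. A difference of this kind between 2i/L and S/L was therefore not particular to Plagl1. Autosomal levels were 11.3% ± 0.227 in 2i/L p10 and 23.6% ± 0.576 in S/L p10 (SD, n = 3 each), while at p20 they were 10.1% ± 2.03 with 2i/L and 22.4% ± 0.882 with S/L (SD, n = 3 each).

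After the return to S/L the autosomes were near the S/L level and Plagl1 was not. The Plagl1 level of p23 cells, 9.47% ± 5.59 (SD, n = 3), lay within the range of 2i/L p20 cells, from which it differed by 2.35 points with overlapping libraries. By line, p23 minus 2i/L p20 was -1.14 points in J-34, 5.67 points in J-35 and 2.52 points in J-37. The difference was -1.50 points at the planned minimum of 10 reads per CpG and -0.877 points without J-37 in the 2i/L p20 group, so no direction is given. Against S/L p20 the p23 cells differed by -34.5 points in J-34, -31.9 points in J-35 and -38.8 points in J-37, a mean difference of -35.1 points. The closest libraries were 28.1 points apart, and both groups belong to one coverage set. The S/L cells were compared at p20 and the returned cells at p23 and p30, so passage number differs as well. The autosomal level over the same passages was 23.4% ± 0.749 (SD, n = 3) in p23, against 22.4% ± 0.882 (SD, n = 3) for S/L p20.

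Bins lower in p23 than in S/L p20 were counted as a background, without asking whether they were low before the return. Of 121254 bins, 1765 (1.46%) were called lower in p23 than in S/L p20, and the Plagl1 bin was among them at -35.3 points, against a median over all bins of 0.640 points. Among intermediate bins, 106 of 13583 (0.78%) were called lower in p23, where the median bin was 9.27 points higher. The Plagl1 window was chosen with these levels known, so the shares are given as background alone.

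After 10 passages in S/L the libraries titled J-35 and J-37 were apart. The p30 level was 20.8% (interval 16.7 to 25.5%) in the library titled J-35 and 1.52% (interval 0.649 to 3.497%) in J-37, against 48.4%, 43.2% and 42.0% in S/L p20. The difference of the means was -33.4 points with 21.2 points between the closest libraries. It was -23.8 points without the p30 library of J-37, and -43.0 points without the one titled J-35. Within the line of the title, p30 minus p23 was 9.40 points in J-35 and -1.68 points in J-37. If the J-34 of the cell type field is right, the first of these values compares 2 lines. In p30, 453 of 112621 bins (0.402%) were called lower than in S/L p20, with the Plagl1 bin at -32.5 points. Among intermediate bins 106 of 12539 (0.845%) were called, and the median bin was 14.1 points higher in p30. The p30 libraries belong to another coverage set than the p23 and S/L p20 libraries.

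**Figure D3:**
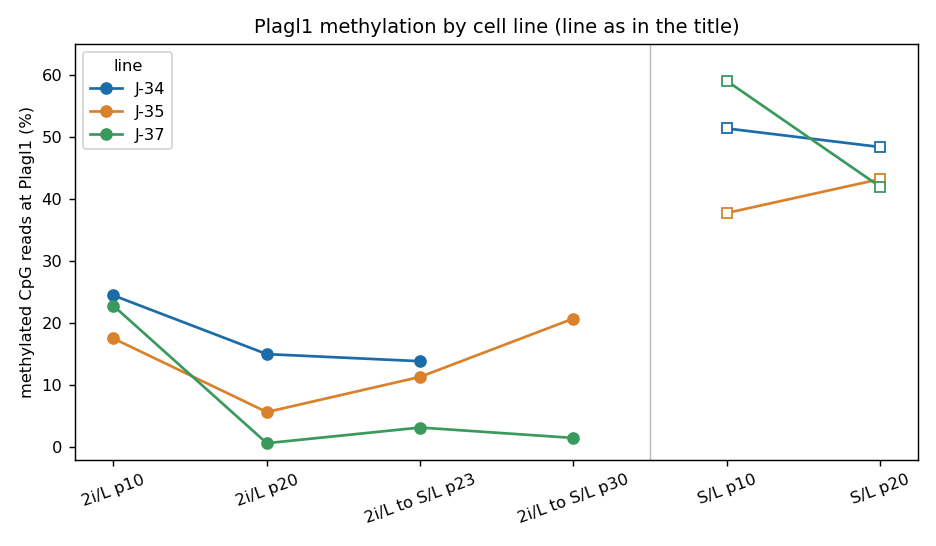
Plagl1 level (y axis, percentage of methylated CpG reads) of single libraries by group (x axis), joined by ESC line as in the title. Filled circles left of the vertical line are 2i/L and returned cells and open squares right of it are S/L cells. J-37 lies at 0.669% in 2i/L p20, 3.19% in p23 and 1.52% in p30, and the p30 point drawn with J-35 is the library whose line is uncertain.

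**Figure D4:**
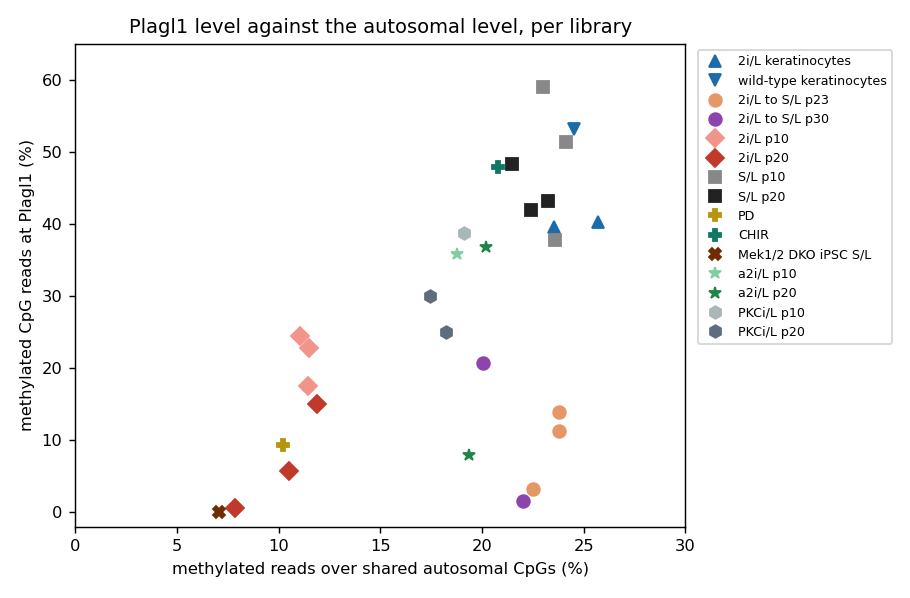
Plagl1 level (y axis) against the level over 337328 shared autosomal CpGs (x axis), both as percentage of methylated reads, 1 point per library and 1 symbol and colour per group. The p23 and p30 points lie at autosomal levels of 20 to 24% with the S/L and keratinocyte points but below them on the Plagl1 axis, and the 2i/L, PD and Mek1/2 DKO points lie at the lower left.

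The Plagl1 level was low in the Mek1/2 DKO line and in PD cells, and in CHIR cells it lay within the S/L p10 range. The Mek1/2 DKO line, which was never in 2i/L, had 0 of 352 CpG reads methylated, against 51.4%, 37.8% and 59.0% in S/L p10 cells. A count of 0 allows up to 0.852% over these CpG reads, and up to 7.69% at the single CpG with most reads in this library, 0 of 39 at 12810693. PD cells of J-34 stood at 9.41% (43 of 457 reads, interval 7.06 to 12.4%), against 51.4% in S/L p10 cells of the same line. CHIR cells of J-34 stood at 47.9% (161 of 336 reads, interval 42.6 to 53.3%), between the S/L p10 libraries of J-35 and J-34. The differences from the S/L p10 mean were -49.4 points for the DKO, -40.0 points for PD and -1.48 points for CHIR. Each of these groups has 1 library, so the spread between cultures is unknown, and the CHIR difference changed sign when the S/L p10 library of J-37 was left out (3.34 points) and at a minimum of 10 reads per CpG (1.72 points).

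The autosomes were low in the same libraries. Their level was 7.09% in the DKO, 10.2% in PD and 20.8% in CHIR, against 23.6% ± 0.576 (SD, n = 3) in S/L p10. In the DKO 54546 of 95590 bins (57.1%) were called lower than S/L p10, and in PD 55428 of 99914 (55.5%). The Plagl1 bin differed by -49.2 points in the DKO, against a median of -35.7 points over all bins. In PD it differed by -39.6 points, against a median of -27.0 points. All these libraries belong to one coverage set by the CpGs of this window, but they were not alike in coverage. The files held 1672778 CpGs for PD and 1612958 for CHIR. For S/L p10 they held 1331357, 1331982 and 1314003 CpGs, and for the DKO 1305420. The S/L p10 cells are ESCs of other lines, while the DKO is a clone of reprogrammed fibroblasts. Genotype, line, reprogramming and clonal origin therefore cannot be told apart there.

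The group means of a2i/L and PKCi/L lay between those of 2i/L and S/L at the same passage, but single cultures did not all do so, and the lines were far apart in a2i/L. At p20 in a2i/L the level was 7.94% in J-34 and 36.8% in J-35, against 48.4%, 43.2% and 42.0% in S/L p20. J-34 thus lay within the range of the 2i/L p20 libraries, below the 15.0% of its own line in 2i/L, and J-35 within 5.16 points of the lowest S/L library. The mean of 22.4% ± 20.4 (SD, n = 2) describes neither culture, and its difference of -22.1 points from S/L p20 was -7.70 points without J-34 and -36.6 points without J-35. The J-34 culture had stood at 35.8% (interval 31.5 to 40.3%) at p10. Its p20 library, of another coverage set, was 27.9 points below its p10 library. At the same p20 its autosomal level, 19.4%, was close to the 20.2% of J-35. At p20 in PKCi/L the level was 25.1% in J-34 and 29.96% in J-35, 27.5% ± 3.45 (SD, n = 2), a difference of -17.02 points from S/L p20 with 12.0 points between the closest libraries.

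At p10 the single a2i/L library at 35.8% lay 1.97 points below the lowest S/L p10 library, and the single PKCi/L library at 38.8% (interval 34.4 to 43.3%) lay within the S/L p10 range. Against the S/L p10 library of its own line, the PKCi/L library was at 38.8% and the S/L library at 37.8% over the 21 CpGs, but at 39.0% and 40.5% in the 500 bp bin, so no direction is given. The difference from the S/L p10 mean was -13.6 points for a2i/L and -10.6 points for PKCi/L. It was -8.08 points for a2i/L at a minimum of 10 reads per CpG, and -18.5 points for PKCi/L at the CpG with most reads alone. The PKCi/L p20 library of J-35, of another coverage set, was 8.81 points below the PKCi/L p10 library. Few autosomal bins were called lower in these media at p20: 523 of 114167 (0.458%) in a2i/L and 236 of 110857 (0.213%) in PKCi/L. The Plagl1 bin was not called in either, at -19.8 points in a2i/L and -15.1 points in PKCi/L. Both contrasts cross coverage sets.

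In order of mean, the 15 groups ran from the wild-type keratinocytes (53.2%) through S/L p10 (49.4%), CHIR (47.9%), S/L p20 (44.5%), 2i/L keratinocytes (39.9%), PKCi/L p10 (38.8%) and a2i/L p10 (35.8%). Below them came PKCi/L p20 (27.5%), a2i/L p20 (22.4%), 2i/L p10 (21.6%), p30 (11.1%), p23 (9.47%), PD (9.41%), 2i/L p20 (7.12%) and the Mek1/2 DKO (0%). Neighbours all along this list differed by less than the SD of S/L p10, 10.8 points, so the order of neighbours is not fixed. The a2i/L p20 libraries, at 7.94% and 36.8%, lay on either side of the PKCi/L p20 and 2i/L p10 means. From p30 to 2i/L p20 the libraries overlap as well. The S/L p10 spread itself came from J-35 at 37.8% and J-37 at 59.0%, which stood at 43.2% and 42.0% in S/L p20.

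Outside the bin 12810501-12811000, which held 17347 of the CpG reads and was kept in all 29 libraries, the window gave little. The bin 12810001-12810500 had at least 10 reads in 18 libraries, which ran from 0% to 50%. There p23 cells gave 1.85% ± 3.21 (SD, n = 3), p30 cells 13.3% ± 9.43 (SD, n = 2), 2i/L p20 cells 7.41% ± 12.8 (SD, n = 3) and S/L p20 cells 37.3% ± 14.6 (SD, n = 2). No keratinocyte library reached 10 reads in it. The other bins of the window reached 10 reads in no library.

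Other maternally methylated promoters were looked up from a list of 12 genes. Only Mcts2 and Zrsr1 could be placed on the deposited CpGs with their RefSeq promoter, with 16 of 16 and 8 of 8 CpGs on a CG, and the others were not analysed here. Both are retrotransposed genes, Mcts2 related to a translation factor gene and Zrsr1 to a splicing factor gene, each expressed from the paternal copy. Their levels were taken over the listed windows, so some of the CpGs used lie outside the placed promoter stretches. For Zrsr1 the placed stretch was chr11:22871755-22872054. In stem cells Zrsr1 (20 CpGs, chr11:22871902-22874253) had much the same order as Plagl1. It stood at 7.62% ± 5.82 in p23 and 8.31% ± 6.40 in 2i/L p20, against 34.99% ± 3.38 for S/L p20 (SD, n = 3 each). In a2i/L p20 it was 5.15% in J-34 and 36.1% in J-35, the same split as at Plagl1.

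In keratinocytes these regions parted. Zrsr1 was 2.95% and 4.09% in the 2i/L keratinocyte libraries, within the 1.75% to 14.1% of the p23 and p30 libraries, against 48.6% in wild-type keratinocytes. The Plagl1 level in the same 2i/L keratinocyte libraries was 39.6% and 40.3%. Mcts2 (9 CpGs with at least 1 read per library, chr2:152512549-152512885) was 44.3% and 39.6% in them, against 36.2% in wild-type keratinocytes. In returned cells Mcts2 was 3.05% ± 2.83 (SD, n = 3) in p23, and no methylated read was found in the p30 libraries, 0 of 140 in the one titled J-35 and 0 of 99 in J-37. Those counts allow up to 2.14% and 3.03%. Mcts2 was low in S/L p20 as well, at 10.97% ± 9.05 (SD, n = 3), where Plagl1 was at 44.5%. In a2i/L p20 it was 38.7% ± 2.57 (SD, n = 2), without the split between lines seen at Plagl1.

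**Figure D5:**
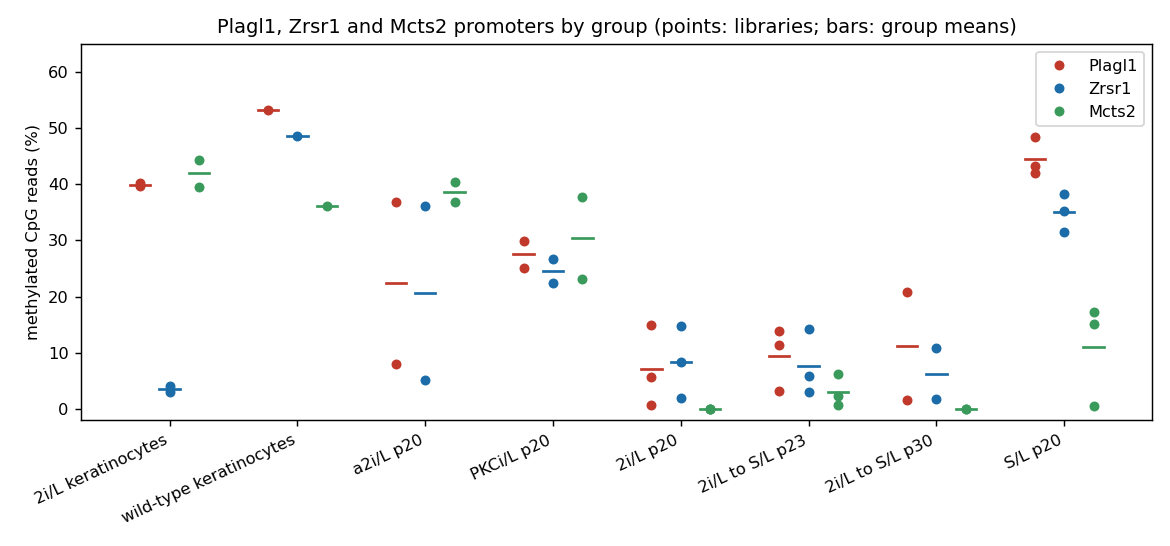
Percentage of methylated CpG reads (y axis) in the Plagl1, Zrsr1 and Mcts2 promoter windows by group (x axis), keratinocyte, p20, p23 and p30 groups. Points are libraries and bars are group means. In the 2i/L keratinocytes Plagl1 and Mcts2 lie near 40% and Zrsr1 below 5%, whereas all 3 lie below 21% in p23 and p30.

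The bins most like Plagl1 across the 29 libraries were ranked by the mean absolute difference from its level, among 2728 autosomal bins with at least 3 CpGs of 10 reads in every library. The Plagl1 window itself had 2 CpGs at this minimum, so regions nearer to Plagl1 may be missing from the ranking. The Zrsr1 and Mcts2 levels above were not ranked, and Zrsr1 lay near Plagl1 in stem cells. The nearest of the ranked bins was chr19:11943525-11943546 with 6 CpGs. It differed by a mean of 9.06 points, against a median of 26.6 points over all bins. Its Pearson r over the 29 libraries was 0.788, which was also the highest r. It differed from Plagl1 in returned cells, at 27.3% in p23 and 23.4% in p30, against 35.2% in S/L p20. Next came chr7:7252281-7252390 (10.9 points, r 0.705), chr7:24867145-24867228 (12.5 points, r 0.474), chr4:122917164-122917424 (13.0 points, r 0.439) and chr8:87295684-87295899 (13.5 points, r 0.543). Of these 5 bins, only the first was among the 5 highest by r. The libraries share lines and media, so r is a description across them, and genes at these bins are not named because no mm9 annotation was used here.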

How the data were processed

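The window, the lists and the comparisons were chosen with earlier results of these data known. The authors deposited a list of CpGs for every library, made with BSMAP 2.89 on mm9 according to the submitters' processing notes. Trimming, filtering and conversion rate were not stated in these sources. Conversion and amplification were done on pools of 12 barcoded samples, per the labels' protocols. Each deposited CpG carries methylated over all reads as a text field, used here as read counts, and a deposited score, which equalled 1000 times that share rounded down and was not used further. The deposited starts were read as counted from 0 and are printed counted from 1. Uneven bisulfite conversion or amplification between pools could shift every level of a pool.

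Groups came from the labels. A level is the percentage of methylated reads over CpGs with at least 5 reads in every library. Means, SDs and differences in percentage points were computed with Python 3.11.15, numpy 2.4.6 and pandas 2.3.3, and figures with matplotlib 3.10.9. The code for levels and calls was tested on simulated data. No tests were run. Wilson intervals are at 95%, and a count of 0 is bounded by 3 reads. Replicate libraries were compared for duplicates: between 3.16% and 6.45% of CpGs with 10 reads in both had the same counts, so none was counted as a copy. Line numbers in the titles were taken to pair libraries of the same ESC line. Single CpGs named by rule are the 5 with most reads and those with the widest and narrowest keratinocyte difference. CpGs 12810763 and 12810780 are named in addition because their keratinocyte difference was small. Values of CpG 12810806, 1 of the 5, are in the closing section. Replicates are cultures of different lines for ESCs; whether the 2i/L keratinocyte libraries came from different animals is not given in the labels. Alternatives tried were other read minimums, other CpG sets, bin sizes, call thresholds and leaving out each replicate.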

Additional observations from a re-analysis of the deposited data

Results flagged for a closer look

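By line, the Plagl1 level in p23 minus that in 2i/L p20 was -1.14 points in J-34, 5.67 points in J-35 and 2.52 points in J-37, so the sign differed between lines. The p30 library minus the p23 library, across coverage sets, was 9.40 points for the title J-35 and -1.68 points for J-37. Each line has 1 library per time, and these differences between lines were not tested.

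Upstream of the placed promoter, 6 CpGs between 12808130 and 12809863 had 46 reads in all, from 14 libraries, and 30 of them (65.2%) were methylated. No library reached 10 reads there, and the groups were not compared.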

How the results depend on the processing

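Of 169 alternative values of the Plagl1 comparisons, 160 kept their direction within the spread of the groups, 3 moved by more than it and 6 changed sign. The spread combines the SDs between libraries of the 2 groups. Leaving out 1 library of a group of 2 or 3 cannot move a mean by more than this spread. Such values could therefore only keep or change their sign. For example, a2i/L p20 minus S/L p20 counts as kept at -7.70 and at -36.6 points. The counts are thus no measure of how stable the differences are. For a group of 1 library the margin of its Wilson interval, which covers counting error only, took its place. The p23 minus 2i/L p20 difference changed sign at the minimum of 10 reads per CpG that was first planned (-1.50 points, over 2 CpGs) and at the CpG with most reads alone (-2.75 points), a setting chosen after the data were seen, and ranged from -0.877 to 6.30 points when 1 library was left out. CHIR minus S/L p10 did so at 10 reads (1.72 points) and at that CpG (0.0651 points), and ranged from -7.30 to 3.34 points. At that CpG p23 minus S/L p20 was -43.5 points, and 2i/L keratinocytes minus 2i/L p20 and minus wild-type keratinocytes were 23.8 and -29.2 points; the cause was not tested. With the replicate block by line, the mean within-line difference was -31.5 points for p30 minus S/L p20, -23.4 points for a2i/L p20 and -18.3 points for PKCi/L p20, and no sign changed. Where both groups hold the same 3 lines, this value equals the difference of the means by arithmetic.

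Leaving out 1 library at a time, 2i/L keratinocytes minus p23 ranged from 27.3 to 32.7 points, minus p30 from 19.2 to 38.4, minus 2i/L p20 from 29.6 to 36.8 and minus wild-type keratinocytes from -13.5 to -12.9. 2i/L p10 minus S/L p10 ranged from -33.6 to -23.0, 2i/L p20 minus S/L p20 from -41.4 to -34.2 and 2i/L p20 minus 2i/L p10 from -18.4 to -11.3. Against S/L p20, p23 ranged from -37.3 to -31.9, p30 from -43.0 to -23.8, a2i/L from -36.6 to -7.70 and PKCi/L from -19.5 to -14.6. Against S/L p10, the DKO ranged from -55.2 to -44.6, PD from -45.8 to -35.2, PKCi/L from -16.5 to -5.81 and a2i/L from -19.4 to -8.78.

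At a 30-point threshold the background shares were 0.417% (p23 lower than S/L p20), 0.116% (p30), 0.126% (a2i/L), 0.0622% (PKCi/L), 11.3% (2i/L keratinocytes above p23) and 8.77% (above p30), and 0.177% and 0.215% in intermediate bins of p23 and p30. With at least 5 CpGs they were 31.1% (2i/L p10), 33.0% (2i/L p20), 0.626% (p23), 0.243% (p30), 0.261% (a2i/L), 32.4% (DKO) and 32.2% (PD). A minimum of 20 reads per CpG left 0 CpGs and gave no value.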

Other observations

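The CpG at 12810806, 168 bases downstream of the start, stood at 2.56% ± 4.44 (SD, n = 3) in p23 and 30.8% ± 5.40 (SD, n = 3) in S/L p20. It stood at 64.3% in the 1 2i/L keratinocyte library with at least 10 reads there. The CpG at 12810786, 20 bases upstream of it, stood at 31.0% ± 5.31 (SD, n = 2) in 2i/L keratinocytes.

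In the stretch from 40 bases upstream to 70 bases downstream of the start, 14 CpGs with a read in every library gave 42.4% ± 2.00 (SD, n = 2) in 2i/L keratinocytes and 5.21% ± 3.59 (SD, n = 3) in p23. From 125 to 181 bases downstream, 10 CpGs gave 37.9% ± 5.82 (SD, n = 2) in 2i/L keratinocytes and 12.5% ± 7.46 (SD, n = 3) in p23. This stretch was uneven, and it holds 12810763 and 12810780, where the 2 groups differed little. From 208 to 295 bases downstream, 11 CpGs gave 40.2% ± 5.30 (SD, n = 2) in 2i/L keratinocytes and 7.79% ± 7.08 (SD, n = 3) in p23.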
